A study of Homo sapiens with 4 samples.

Results

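The 26S proteasome was followed through 43 genes of 143B cells, a human osteosarcoma line, after siRNA against CBX3, the gene of heterochromatin protein 1 gamma. They are the rows of the count table whose symbol is PSMA to PSMG followed by a number, without the 3 inducible immunoproteasome genes PSMB8, PSMB9 and PSMB10. This rule on names gave 43 of the 37450 features in the table. They were sorted by textbook role into 14 core genes (7 of the alpha ring and 7 of the beta ring), 17 cap genes (9 of the base and 8 of the lid), 7 assembly genes and 5 activators and inhibitors. PSMA8 and PSMB11, the testis and thymus forms, matched no row and were not analysed here.

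Stranded mRNA sequencing was done 2 days after lipid-based transfection, with 2 libraries from cells given a control siRNA (siNC, labelled wild type) and 2 from cells given CBX3 siRNA (siCBX3, labelled CBX3 knockdown). All 4 libraries came from this 1 line and all were transfected. How many siRNAs were used, and their sequences, is not stated in the labels, so effects of CBX3 loss and of the particular siRNA cannot be told apart. The labels do not say whether replicates came from separate cultures, and the p-values rest on variation among these libraries alone, which may be technical.

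As background, the 26S proteasome degrades proteins tagged with ubiquitin. Its core is a barrel of stacked rings, with outer alpha rings that gate the entrance and inner beta rings that carry the catalytic sites, and its cap is a base of ATPases that unfolds substrates under a lid that removes ubiquitin. Dedicated chaperones build the core and the base and do not remain in the finished particle. In many cells the subunit genes are induced together by the transcription factor NFE2L1 (NRF1) through antioxidant response elements when proteasome activity falls short.

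Total counts per library were 36509298 to 40336907. The targeted gene, CBX3, fell from 20311 and 21384 reads to 2020 and 2163, a log2 fold change of -3.19 ± 0.08 (SE; edgeR adjusted p = 2.73e-20). The summed level of 7 mesenchymal and bone markers was 1129 to 1158 CPM (read counts scaled to library size) in siNC and 3296 to 3382 in siCBX3, and 1 of them, ALPL, had under 10 counts in every library. SPARC (358 and 285 CPM in siNC, 1782 and 1683 in siCBX3) and VIM (651 and 757, 1414 and 1425) made up most of that sum. COL1A1, at 13.5 and 13.4 CPM against 18.3 and 18.2, and COL1A2, at 8.86 and 8.69 against 10.6 and 10.1, differed far less. The 3 epithelial markers summed to 17.71 to 17.83 CPM in siNC and 12.48 to 14.17 in siCBX3, the 3 leukocyte markers to 1.757 to 2.07 and 1.476 to 2.534, and the 3 endothelial markers to 1.757 to 2.097 and 1.504 to 1.787. No marker was at 0 over a whole group, and CDH1, CD3E and CDH5 had under 10 counts in every library. The part of the marker difference in the proteasome results was not tested. In bulk RNA, fewer cells of a type and less RNA per cell cannot be told apart.

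All 43 proteasome genes passed the filter on low counts, with 281 counts as the lowest value of any of them in a library. Levels below are CPM scaled by trimmed-mean (TMM) factors, log2 fold changes are siCBX3 minus siNC, and a gene is said to have risen or fallen at a Benjamini-Hochberg adjusted p under 0.05 in edgeR's quasi-likelihood test over all 20999 tested genes. Of the 43, 18 fell and 1, PSMC3, rose. The share that fell was 41.9%, where 24.0% of all tested genes fell and 24.4% rose. Among the 10146 tested genes at least as abundant as the lowest member, 29.3% fell and 33.2% rose. The fitted change was below 0 in 36 of 43, and in 10596 of all 20999 tested genes. The median log2 fold change was -0.15, against -0.01 over all tested genes.

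The shifts were small. In 39 of 43 genes (90.7%) the log2 fold change lay within 0.5 of 0, which held for 60.6% of all tested genes, and 1 gene, the chaperone PSMD10, moved by more than 1. The interquartile range of the members ran from -0.29 to -0.05, inside that of all tested genes, -0.39 to 0.38. Both siCBX3 libraries showed the shift: the median deviation of the members from their siNC mean was -0.15 in library 1 and -0.18 in library 2 on the log2 scale, with 35 and 37 of 43 genes below it. In 31 members both siCBX3 libraries lay below both siNC libraries, in 2 both lay above, and in 10 the groups overlapped. Over all tested genes such complete separation was found in 37.4% with siCBX3 lower and 36.4% with siCBX3 higher. The comparisons in this paragraph used all 20999 tested genes, not the 10146 at least as abundant as the lowest member.

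**Figure D1:**
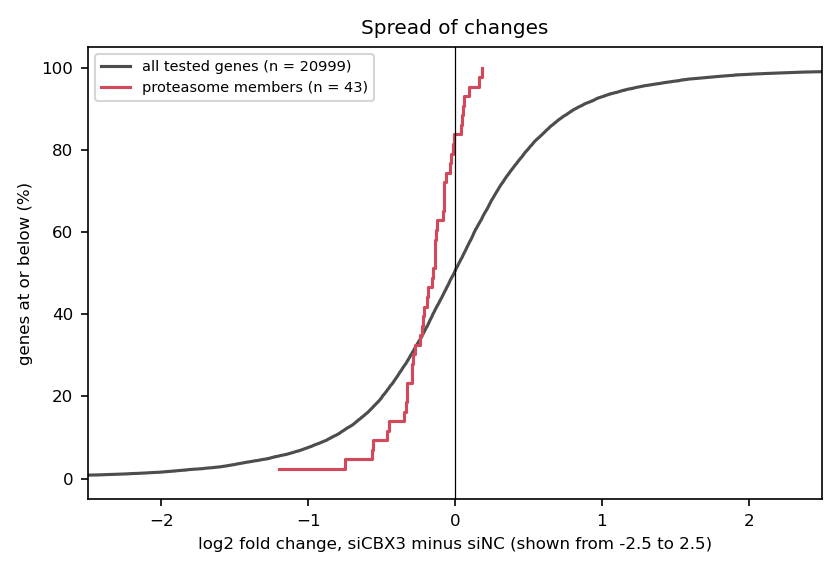
Cumulative share of genes (y axis, percent) at or below each log2 fold change, siCBX3 minus siNC (x axis), for the 43 proteasome genes (red steps) and all 20999 tested genes (grey line). The red curve is steeper and crosses 50% at -0.15, while the grey curve crosses it at -0.01.

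By class, 6 of 14 core genes fell (median log2 fold change -0.16), and 6 of 17 cap genes fell and 1 rose (median -0.14). In the assembly group 4 of 7 genes fell (median -0.27), and 2 of 5 activators and inhibitors fell (median -0.13). Over all tested genes 24.0% fell and 24.4% rose. Among those at least as abundant as the lowest member 29.3% fell and 33.2% rose, and the cap's share that fell was 35.3%. These shares, and the 10596 of 20999 tested genes with changes below 0, also stand beside the counts by role below. No gene of the core, the assembly group or the activators and inhibitors rose in edgeR, and none did at an unadjusted p under 0.05 or with DESeq2 or limma-voom. Separation with siCBX3 lower was complete in 10 of 14 core genes, 13 of 17 cap genes, 5 of 7 assembly genes and 3 of 5 activators and inhibitors. It was found in 37.4% of all tested genes. The differences between classes were not tested. The assembly median was -0.16 without siNC 2, and with library totals as scaling the cap and the activators and inhibitors had medians of -0.22 and -0.21. With DESeq2, 3 core genes fell in place of 6, as PSMA5, PSMB1 and PSMB2 missed the threshold (DESeq2 adjusted p = 0.0595, 0.0698 and 0.111).

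**Figure D2:**
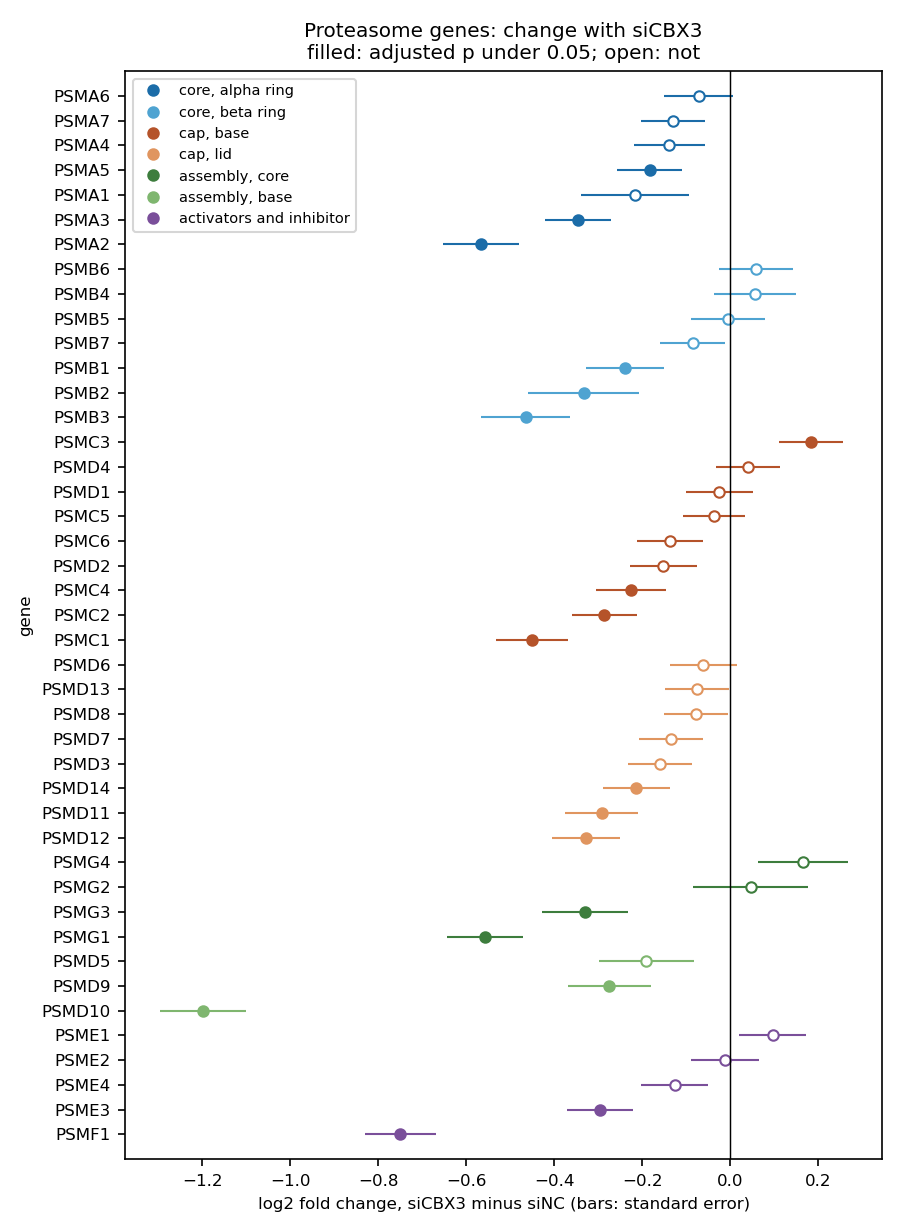
Log2 fold change, siCBX3 minus siNC (x axis), of each of the 43 genes (y axis), coloured by role. Bars are 1 standard error of the edgeR fit with 2 libraries per group. That error draws mostly on spread across all tested genes, not on the gene's own libraries. Filled points passed the adjusted p threshold of 0.05. PSMD10, PSMF1, PSMA2 and PSMG1 lie farthest to the left, and PSMC3 is the filled point to the right of 0.

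The alpha ring, whose subunits form the gate of the barrel, had 7 genes with fitted changes below 0, of which 3 fell. PSMA2 was at 42.8 and 40.1 CPM in siNC and 27.8 and 28.2 in siCBX3, a log2 fold change of -0.57 ± 0.09 (SE; edgeR adjusted p = 7.28e-06). It fell by 32.5% and its groups were well apart. The gene lies at chr7:42916857-42932223 on the minus strand of GRCh38, and 34.6% of its exon bases are shared with other annotated genes, of which RP11-111K18.1 lies on the same strand, so some of its reads cannot be assigned with certainty. PSMA3 was at 104 and 107 CPM in siNC and 81.5 and 84.0 in siCBX3 (log2 fold change -0.35 ± 0.08, edgeR adjusted p = 0.000468), with both siCBX3 libraries lower. PSMA5 stood at 133 and 127 CPM against 114 and 114 (-0.18 ± 0.07, edgeR adjusted p = 0.044). That call was close to the threshold: it was lost without siNC 1, siCBX3 1 or siCBX3 2 (-0.15, -0.19 and -0.18). It was also lost with DESeq2 and with no filter.

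PSMA7, the most abundant member per length, was at 465 and 441 CPM in siNC and 425 and 404 in siCBX3. Its groups did not overlap, but its log2 fold change of -0.13 ± 0.07 did not pass (edgeR adjusted p = 0.151). It passed with library totals as scaling (-0.21, adjusted p = 0.0216) and without siNC 2 (-0.16). PSMA1, PSMA4 and PSMA6 were not called either, with log2 fold changes of -0.22, -0.14 and -0.07, and PSMA6 overlapped between groups.

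In the beta ring 3 of 7 genes fell, PSMB1, PSMB2 and PSMB3, which encode subunits without a catalytic site. The 3 genes of the catalytic subunits were not called in either direction, and the difference between these sets was not tested. PSMB5, which carries the chymotrypsin-like site, was at 82.4 and 69.8 CPM in siNC and 77.8 and 73.8 in siCBX3, a log2 fold change of -0.01 ± 0.08 (edgeR adjusted p = 0.966). PSMB6, with the caspase-like site, was at 39.5 and 43.5 CPM against 42.8 and 43.7 (0.06 ± 0.08, edgeR adjusted p = 0.594). In both genes the groups overlapped. PSMB7, with the trypsin-like site, was at 113 and 115 CPM against 105 and 110.0 (-0.09 ± 0.07, edgeR adjusted p = 0.364), with siCBX3 slightly lower in both libraries. A miss of the threshold does not show that these levels were equal.

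PSMB3 was at 23.6 and 22.9 CPM in siNC and 18.0 and 15.7 in siCBX3 (log2 fold change -0.46 ± 0.10, edgeR adjusted p = 0.000507). It fell by 27.5%, and the call held in each of 13 alternative settings. PSMB1 was at 50.5 and 60.6 CPM against 48.4 and 45.8 (-0.24 ± 0.09, edgeR adjusted p = 0.0295). Its siNC libraries differed by more than the lower of them differed from siCBX3. Without siNC 2 the log2 fold change was -0.10, and without siCBX3 2 it was -0.20. The call was lost in either case, and also with DESeq2 and on both RPKM scales. PSMB2 was at 11.1 and 10.8 CPM against 7.97 and 9.45 (-0.33 ± 0.13, edgeR adjusted p = 0.0333), and was called in 7 of 13 alternatives. It lost its call with DESeq2, with no filter, on both RPKM scales, and without siNC 1 (-0.31) or siCBX3 1 (-0.22). PSMB4, which is also not catalytic, had a log2 fold change of 0.06 with overlapping groups.

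**Figure D3:**
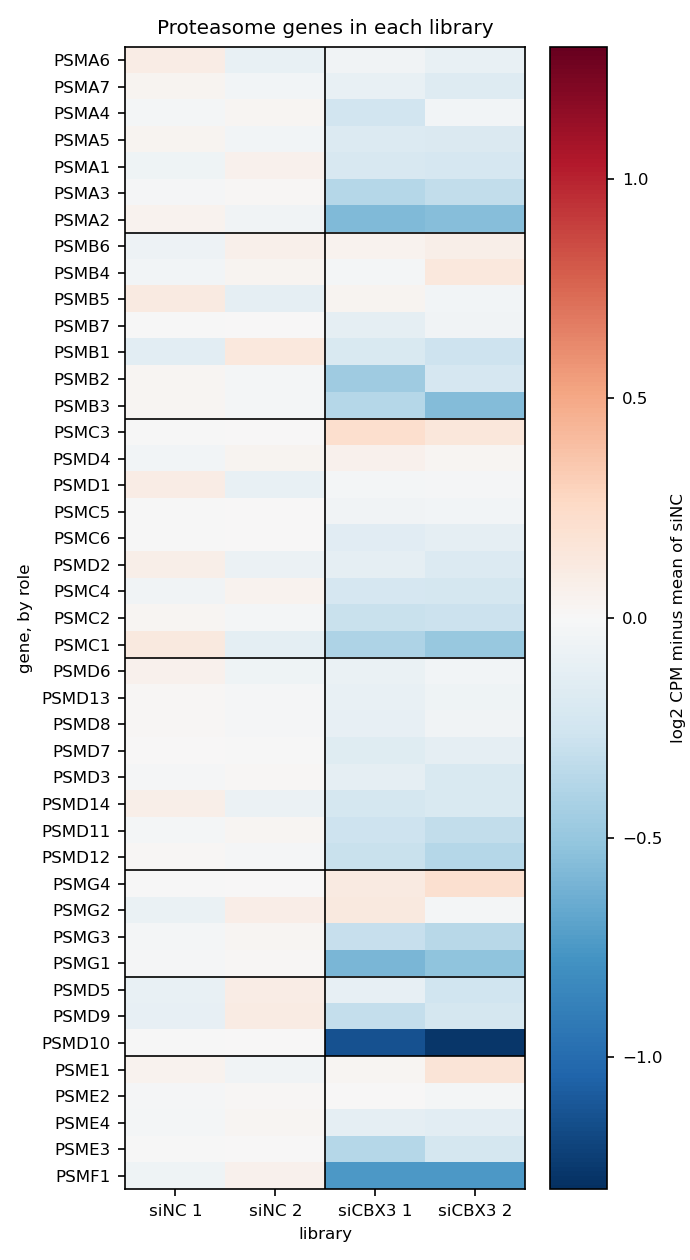
Log2 CPM minus the siNC mean (colour scale) of each of the 43 genes (rows, grouped by role from the alpha ring at the top to the activators and inhibitor at the bottom) in each of 4 libraries (columns). The siCBX3 columns are mostly blue, with PSMD10 the darkest, while PSMC3 and PSMG4 are red in both of them.

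In the base of the cap, which holds 6 ATPases and 3 ubiquitin-handling or scaffold proteins, 3 genes fell and 1 rose, all 4 of them ATPases. PSMC1 was at 676 and 566 CPM in siNC and 469 and 440.4 in siCBX3 (log2 fold change -0.45 ± 0.08, edgeR adjusted p = 6.42e-05), a decrease that held in every alternative. It lies at chr14:90256495-90275429, plus strand, and 75.8% of its exon bases are shared with NRDE2 on the opposite strand, whose own log2 fold change was -0.12 (edgeR adjusted p = 0.188). No source used here states whether counting used strand. PSMC2 was at 134 and 129 CPM against 107 and 108 (-0.29 ± 0.07, edgeR adjusted p = 0.00235), and it shares no exon base with another gene. PSMC4 was at 58.5 and 62.6 CPM against 52.1 and 51.6 (-0.22 ± 0.08, edgeR adjusted p = 0.023). It missed the threshold with no filter and without siNC 2, siCBX3 1 or siCBX3 2 (-0.17, -0.23 and -0.22).

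PSMC3, another ATPase of the same ring, moved the other way, from 328 and 329 CPM in siNC to 382 and 364 in siCBX3. The log2 fold change was 0.18 ± 0.07 (edgeR adjusted p = 0.0375), with both siCBX3 libraries higher. It lies at chr11:47418769-47426473 on the minus strand and shares no exon bases. This call did not survive scaling by library totals (0.10, adjusted p = 0.248) or upper quartile (0.14, 0.122), nor the RPKM values, nor leaving out siCBX3 1 (0.324) or siCBX3 2 (0.107). The remaining base genes were not called: PSMC5 and PSMC6 had log2 fold changes of -0.04 and -0.14. The scaffold genes PSMD1 and PSMD2 had -0.02 and -0.15, and PSMD4, a ubiquitin receptor, had 0.04. PSMD2 passed with library totals (-0.23, adjusted p = 0.0141), upper-quartile factors (-0.20, 0.0363) or the replicate block (-0.15, 0.0305), and without siNC 2 (-0.23).

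The lid had 8 genes with fitted changes below 0, of which 3 fell. PSMD12, a scaffold subunit, was at 86.0 and 84.4 CPM in siNC and 69.7 and 66.1 in siCBX3 (log2 fold change -0.33 ± 0.08, edgeR adjusted p = 0.00104), and the call held in each of the 13 alternatives. PSMD11, another scaffold subunit, was at 47.3 and 49.2 CPM against 40.1 and 38.8 (-0.29 ± 0.08, edgeR adjusted p = 0.00492), and missed the threshold only without siCBX3 2 (0.0673). PSMD14, the enzyme that cuts ubiquitin chains off the substrate, was at 142 and 128 CPM against 115 and 118 (-0.21 ± 0.08, edgeR adjusted p = 0.0239). It missed the threshold without siNC 1 (0.166), siCBX3 1 (0.161) or siCBX3 2 (0.103).

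PSMD3 was at 178 and 181 CPM in siNC and 165 and 156 in siCBX3, and its log2 fold change of -0.16 ± 0.07 did not pass (edgeR adjusted p = 0.075). It was called lower in 6 of 13 alternatives, and over all roles 8 of the 24 uncalled members were called lower in at least 1. The other lid genes, PSMD6, PSMD7, PSMD8 and PSMD13, had log2 fold changes from -0.13 to -0.06 and were not called. In 7 of the 8 lid genes, all but PSMD6, both siCBX3 libraries were below both siNC libraries. Over all tested genes this held for 37.4%, and the difference was not tested. The count of cap genes that fell, 6 with all libraries, was 3 without siCBX3 2, 10 with library totals as scaling and 8 with the replicate block.

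Among the assembly genes, those of the base chaperones included the member that changed most. PSMD10 (gankyrin), which escorts the ATPase PSMC4 during assembly of the base, was at 30.2 and 30.4 CPM in siNC and 13.8 and 12.6 in siCBX3, from 1137 and 1280 counts against 487 and 477. The log2 fold change was -1.20 ± 0.10 (SE; edgeR adjusted p = 3.77e-10), so the level fell by 56.4%, and 5.5% of tested genes had a lower value. It held in every alternative, between -1.28 and -1.13. The gene lies at chrX:108084207-108091618 on the minus strand of GRCh38 and shares no exon base with another gene in the table. PSMD9, also a base chaperone, was at 29.0 and 33.6 CPM against 25.1 and 26.6 (-0.27 ± 0.09, edgeR adjusted p = 0.0191). That call was lost without siNC 2 (0.235) or siCBX3 1 (0.134), and 22.7% of its exon bases are shared. PSMD5, the other base chaperone among the members, was at 16.5 and 19.0 CPM against 16.4 and 14.7, and did not pass (-0.19 ± 0.11, edgeR adjusted p = 0.155). Without siNC 1 it passed, at a log2 fold change of -0.29.

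The core chaperones among the members act in pairs, PSMG1 with PSMG2 and PSMG3 with PSMG4. In each pair 1 gene fell and its partner was not called. PSMG1 was at 39.8 and 40.7 CPM in siNC and 26.8 and 27.9 in siCBX3 (log2 fold change -0.56 ± 0.09, edgeR adjusted p = 8.96e-06), and this held in every alternative. PSMG2 was at 8.28 and 9.38 CPM against 9.62 and 8.65, with overlapping groups (0.05 ± 0.13, edgeR adjusted p = 0.795). PSMG3 was at 21.3 and 22.2 CPM against 17.7 and 16.9 (-0.33 ± 0.10, edgeR adjusted p = 0.00736), and missed the threshold without siCBX3 2 (0.0741). PSMG4 was at 16.3 and 16.4 CPM against 17.7 and 19.0, with siCBX3 higher in both libraries but not called (0.17 ± 0.10, edgeR adjusted p = 0.188). The difference within each pair was not tested.

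Because PSMD10 and PSMG1 had the largest decreases among the assembly genes, the 250 bases before their start sites are shown, from the RefSeq promoter table (GRCh38.p14), 5′ to 3′ on the gene's own strand. Capitals mark matches, on either strand, to any of 5 motifs that were searched: the antioxidant response element core TGACNNNGC, CCAAT, the E-box CACGTG, the ETS core CCGGAAG and the GC box GGGCGG. Overlapping matches appear as 1 run of capitals.
PSMD10, chrX:108091543-108091792, minus strand: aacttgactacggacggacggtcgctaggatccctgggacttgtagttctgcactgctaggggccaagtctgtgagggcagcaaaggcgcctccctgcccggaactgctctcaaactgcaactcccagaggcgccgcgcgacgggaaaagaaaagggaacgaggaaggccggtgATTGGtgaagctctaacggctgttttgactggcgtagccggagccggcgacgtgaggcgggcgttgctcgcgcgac
PSMG1, chr21:39183452-39183701, minus strand: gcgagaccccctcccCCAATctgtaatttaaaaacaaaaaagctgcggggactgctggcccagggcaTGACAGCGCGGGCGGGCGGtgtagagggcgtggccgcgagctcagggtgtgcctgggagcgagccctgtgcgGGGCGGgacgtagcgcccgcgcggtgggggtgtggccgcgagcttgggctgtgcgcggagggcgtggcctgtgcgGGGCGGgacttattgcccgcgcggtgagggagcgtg
In PSMD10 the only capitals are a CCAAT box read from the other strand. In PSMG1 there are a CCAAT box, an antioxidant response element core that runs into GC boxes, and further GC boxes.

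The antioxidant response element core was of interest because NFE2L1 is known to bind it in proteasome genes. RefSeq promoter windows, from 250 bases before to 50 after the start, were found for 37 of 43 members. The 6 without an entry were PSMA7, PSMB1, PSMB6, PSMB7, PSMD4 and PSMG3. TGACNNNGC was present on either strand in 14 of 37 members (37.8%) and in 19.0% of 11624 tested genes with such a window. It was in 5 of 16 members that fell and in 9 of the other 21. Examples from genes that fell, with the match in capitals and 10 bases on each side on the gene's strand, are the following.
PSMB3, chr17:38752627-38752655, plus strand: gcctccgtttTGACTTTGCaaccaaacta
PSMD12, chr17:67366724-67366752, minus strand: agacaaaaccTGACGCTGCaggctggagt
PSMD9, chr12:121888678-121888706, plus strand: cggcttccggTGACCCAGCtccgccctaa
PSMG1, chr21:39183616-39183644, minus strand: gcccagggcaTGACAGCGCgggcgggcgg
The next matches are from genes that were not called.
PSMA4, chr15:78540650-78540678, plus strand: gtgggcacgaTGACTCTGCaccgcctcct
PSMD3, chr17:39980760-39980788, plus strand: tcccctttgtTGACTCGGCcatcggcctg
A match is a description of letters and not a bound site.

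The ETS core was in 14 of 37 members (37.8%) and in 20.0% of tested genes, and the CCAAT box in 18 (48.6%) and 42.6%. The GC box was in 26 (70.3%) and 74.1%, and the E-box in 3 (8.11%) and 12.3%. The 3 members with an E-box, PSMB3, PSMD9 and PSME3, were all among the genes that fell. CCAAT was in 10 of 16 members that fell and in 8 of the other 21. None of these shares was tested.

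Of the activators and inhibitors that bind the core in place of the cap or beside it, 2 of 5 fell. PSMF1 (PI31), which inhibits the isolated core and takes part in proteasome transport, was at 71.2 and 76.8 CPM in siNC and 44.0 and 44.0 in siCBX3. Its log2 fold change was -0.75 ± 0.08 (edgeR adjusted p = 3.48e-08), so it fell by 40.5%, next in size to PSMD10 among the 43. It lies at chr20:1113263-1189415 on the plus strand, and the call held in every alternative. PSME3, the nuclear activator PA28 gamma, was at 155 and 155 CPM against 119.9 and 133 (-0.30 ± 0.08, edgeR adjusted p = 0.00221). It missed the threshold without siCBX3 1 (-0.23, adjusted p = 0.102). PSME4 (PA200) was at 77.7 and 80.6 CPM against 73.2 and 71.8 (-0.13 ± 0.08, edgeR adjusted p = 0.183). The interferon-inducible activators PSME1 and PSME2 overlapped between groups, PSME1 at 138 and 131 CPM against 137 and 151 (0.10 ± 0.08, edgeR adjusted p = 0.308) and PSME2 with a log2 fold change of -0.01 (0.915).

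Levels between genes were compared as RPKM, the authors' values per length of gene and depth of library. On that scale the median log2 shift of all tested genes was -0.08, so the percentages that follow include a common shift of that size. Mean RPKM in siNC ran from 1.61 for PSMG4 to 266 for PSMA7, a 165-fold range. PSMA7 alone made up 71.7% of the summed RPKM of the alpha ring, and PSMD2 made up 23.3% of that of the cap. The order of the members was nearly kept between groups, with a Spearman correlation of 0.990 across the 43 genes between group means that share annotated lengths.

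Summed RPKM of the 14 core genes was 570 ± 2.29 in siNC and 492 ± 1.96 in siCBX3 (mean ± SD, n = 2 libraries), so it decreased by 13.7%. For the 17 cap genes the sums were 1025 ± 11.7 and 909 ± 4.87, so the cap decreased by 11.3%, and for the 5 activators and inhibitors 151 ± 1.90 and 137 ± 8.06. The 7 assembly genes summed to 52.6 ± 2.95 and 35.0 ± 0.197, and so decreased by 33.4%, at a level far below the subunits. Within that sum PSMD10 and PSMG1 had the largest drops, from means of 12.6 and 16.4 RPKM in siNC to 5.22 and 10.6 in siCBX3. Only PSMG4 had a higher mean, at 1.61 and 1.71. In each class both siCBX3 sums lay below both siNC sums. Gene lengths in RPKM follow the annotation's merged exons, so levels of genes with long, little-used exons are understated.

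**Figure D4:**
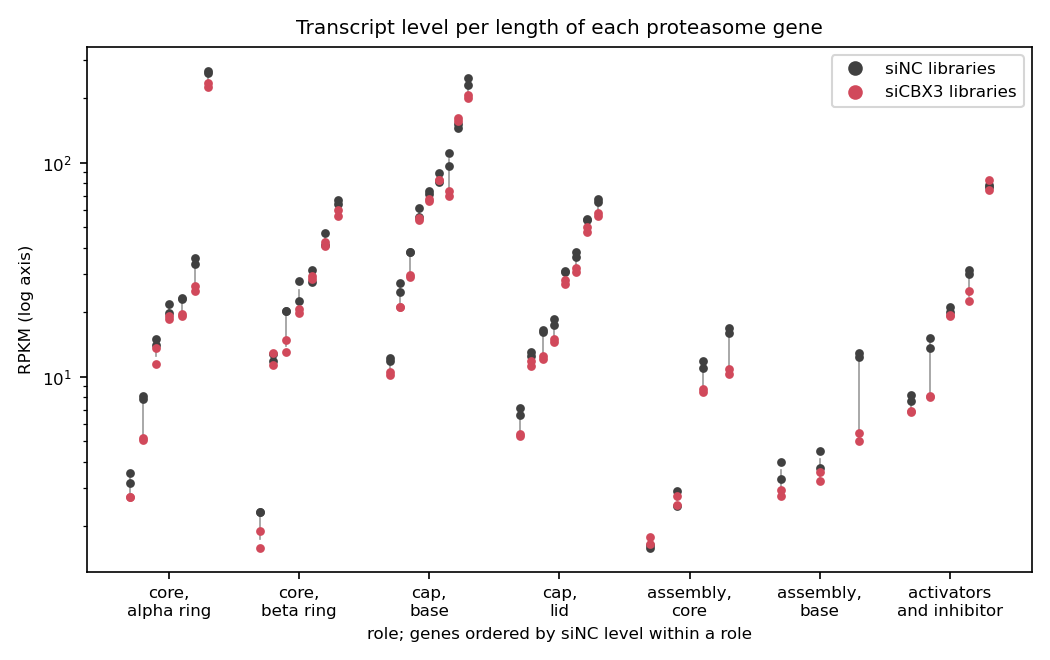
RPKM on a log axis (y axis) of each of the 43 genes (x axis, grouped by role and ordered by siNC level), with the 2 siNC libraries in grey and the 2 siCBX3 libraries in red. PSMA7 stands alone at the top of the alpha ring, at 266 in siNC, and the widest gap between grey and red is that of PSMD10.

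Reads shared with other features were checked. The 23 members that share no exon base with another gene had 10 that fell, 1 that rose and a median log2 fold change of -0.16. The 20 members with shared bases had 8 that fell and a median of -0.13. Of the 23 proteasome pseudogene rows in the table, 22 had a mean of at most 50 counts. The exception was PSMC1P1, with 866 and 848 reads in the siNC libraries against 574 and 584 under siCBX3. Its log2 fold change of -0.44 (edgeR adjusted p = 0.000989) was close to that of its parent PSMC1, and reads of these near-identical copies may be split between them. The members lie on 17 chromosomes, with 7 each on chromosomes 14 and 17.

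The wider pathway was described through 35 other genes, of which 13 rose and 8 fell (22.9%), with a median log2 fold change of -0.01. Over all tested genes 24.4% rose and 24.0% fell, so the share that fell was near the background. Without siCBX3 1, 9 rose and 5 fell; with library totals 10 rose and 13 fell, with upper-quartile factors 11 and 12, and on either RPKM scale 7 and 10. The 3 inducible catalytic subunits of the immunoproteasome, which replace PSMB5, PSMB6 and PSMB7 after interferon, were at low levels. PSMB9 was at 5.97 and 5.32 CPM in siNC and 0.908 and 1.37 in siCBX3 (-2.30 ± 0.22, edgeR adjusted p = 5.88e-09), and PSMB8 at 12.7 and 14.6 CPM against 8.17 and 7.36 (-0.81 ± 0.13, edgeR adjusted p = 8.48e-06). PSMB10 was at 5.36 and 6.88 CPM against 4.17 and 5.12, without overlap but not called (-0.40 ± 0.17, edgeR adjusted p = 0.0525). It passed with library totals (adjusted p = 0.0275), upper-quartile factors (0.03), a mean of at least 50 counts (0.0455) or the replicate block (0.0296). Without siNC 1 or siCBX3 2 it also passed, at log2 fold changes of -0.57 and -0.56.

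The next 6 genes were those of transcription factors that drive proteasome genes, their small MAF partners and the activating enzyme NGLY1. In edgeR 4 of 6 rose and none fell, where 24.4% of all tested genes rose and 24.0% fell. The difference from these shares was not tested. NGLY1 was lower at an unadjusted p under 0.05. It passed with library totals (-0.29, adjusted p = 0.0167) or upper-quartile factors (-0.25, 0.03) as scaling. NFE2L1 itself was at 355 and 368 CPM in siNC and 784 and 780.2 in siCBX3, a log2 fold change of 1.11 ± 0.07 (edgeR adjusted p = 4.88e-12). It more than doubled while 18 of the 43 members fell. MAFF was at 28.4 and 28.4 CPM against 48.8 and 48.1 (0.77, edgeR adjusted p = 4.58e-08). MAFG and NFE2L2 rose by 0.58 and 0.43 on the log2 scale (edgeR adjusted p = 4.37e-06 and 0.000156). These are transcript levels; NFE2L1 protein is processed and degraded after translation, and neither its protein nor proteasome activity was measured in these files.

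**Figure D5:**
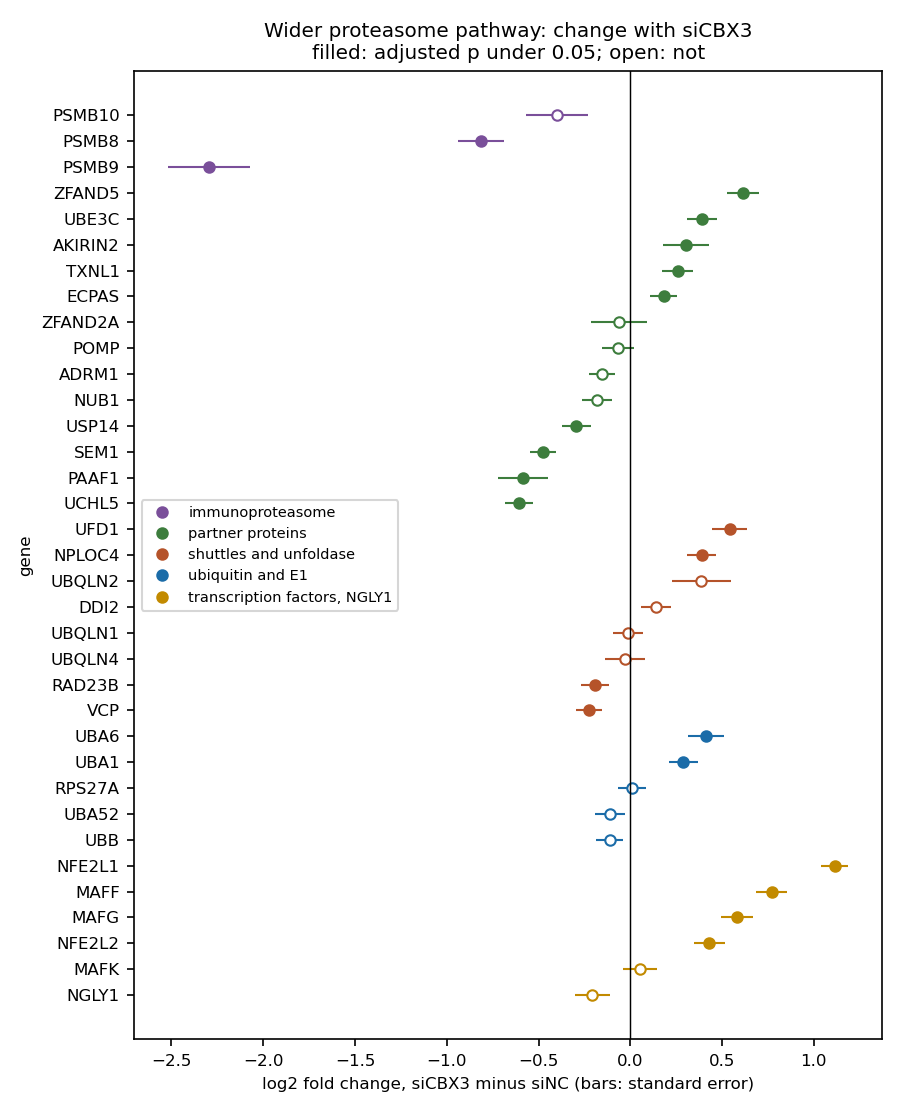
Log2 fold change, siCBX3 minus siNC, of the 35 wider-pathway genes by role, with filled points for those past the adjusted p threshold. NFE2L1 at 1.11 is the highest and PSMB9 at -2.30 the lowest.

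Transcripts of 13 proteasome partners, a list that includes SEM1, ADRM1, POMP and PAAF1, moved in both directions. In edgeR 5 of 13 rose and 4 fell (30.8%), where 24.4% of all tested genes rose and 24.0% fell. The count of rises was 2 without siCBX3 1 or siCBX3 2, with library totals and on both RPKM scales, and 3 without siNC 2, with upper-quartile factors, with DESeq2, with no filter and with a mean of at least 50 counts. UCHL5, a deubiquitinase of the cap, was at 125 and 118 CPM in siNC and 80.3 and 79.4 in siCBX3 (-0.61, edgeR adjusted p = 3.5e-07). SEM1, the smallest lid subunit, listed under its older symbol SHFM1, was at 496 and 472 CPM against 348 and 348 (-0.47, edgeR adjusted p = 6.71e-06). PAAF1, a base chaperone outside the members, was at 10.8 and 11.9 CPM in siNC and 6.58 and 8.57 in siCBX3 (-0.58, edgeR adjusted p = 0.00101). ZFAND5, an activator, and UBE3C, a proteasome-bound ubiquitin ligase, rose by 0.62 and 0.39 on the log2 scale (edgeR adjusted p = 2.81e-06 and 0.000292).

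Of 8 shuttle and unfolding factors 2 rose and 2 fell, shares near the background of 24.4% and 24.0%, and neither fall passed without siCBX3 1 or without siCBX3 2. UFD1 and NPLOC4, cofactors of the unfoldase VCP, rose by 0.54 and 0.39 on the log2 scale (edgeR adjusted p = 3.84e-05 and 0.000257), while VCP was at 271 and 276 CPM in siNC and 229.7 and 238 in siCBX3 (-0.23, edgeR adjusted p = 0.0115). Without these libraries the adjusted p of VCP was 0.153 and 0.0689, and the NPLOC4 call was lost on the RPKM values (0.0545 and 0.0525). RAD23B, which carries ubiquitinated substrates, fell by 0.19 on the log2 scale (edgeR adjusted p = 0.0365). It lost the call with DESeq2, with no filter and without siNC 1, siCBX3 1 or siCBX3 2 (-0.18, -0.18 and -0.20). Of 5 ubiquitin and E1 genes 2 rose and none fell in edgeR, against the same background of 24.4% and 24.0%. None of the 5 was lower at an unadjusted p under 0.05, though UBB passed as lower with library totals as scaling (-0.19, adjusted p = 0.0328). The E1 enzymes UBA6 and UBA1 rose by 0.41 and 0.29 on the log2 scale (edgeR adjusted p = 0.00131 and 0.00343). The E1 calls were lost on the RPKM values, and that of UBA1 also without siCBX3 1 (0.0581).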

How the data were processed

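Per the labels' protocols, total RNA was extracted 2 days after transfection and made into stranded mRNA libraries. Per the submitters' processing notes, reads were handled with Trimmomatic 0.36, STAR 2.5.3a and featureCounts (Subread 1.5.1) on GRCh38. No source used here states how strand, shared reads or molecular identifiers were treated. The authors deposited raw read counts and RPKM values for the same 37450 features. Recomputing RPKM from the deposited counts matched within a relative difference of 3.79e-07.

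The members and gene lists were chosen with earlier results of these data known. The main test used edgeR 4.0.16 under R 4.3.3. Genes passing filterByExpr (minimum count 10, minimum total 15), 20999 in all, were scaled by TMM factors, and quasi-likelihood fits used the 4 libraries with a single group term (2 residual and 22.0 prior degrees of freedom). Each SE is the absolute log2 fold change divided by the square root of F. Replicate libraries differed beyond sampling noise (chi-square over its degrees of freedom was 9.08 for siNC, 5.53 for siCBX3). Each was fitted as 1 replicate, though this spread does not show that they came from separate cultures. Errors reflect counting noise and library spread only. Shared exon bases were taken from the count table's coordinates on either strand.

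All 4 libraries are given for PSMB5, PSMB6, PSMB7 and for up to 4 genes per role with the smallest adjusted p, and other members by range or log2 fold change. In the wider pathway, the rule named the immunoproteasome genes, NFE2L1 and up to 4 genes of each other role. PAAF1 was named outside that rule, as a base chaperone. Besides, 3 genes were taken out of the pathway and marker lists, and are not analysed here. The alternatives were library-total and upper-quartile scaling, DESeq2 1.42.0, limma-voom (limma 3.58.1), no filter, a mean of at least 50 counts, limma on log2(RPKM + 1) and log2(RPKM + 0.1), the replicate block, and leaving out each library. Motifs and figures used Python 3.11.15.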

Additional observations from a re-analysis of the deposited data

How the results depend on the processing

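Of the 18 members that fell, 9 were called in all 13 alternatives, 13 in at least 10, and none changed sign; 8 of 24 uncalled members changed sign in at least 1. With library totals as scaling, 0 members rose, 0 cap genes rose, 10 cap genes fell, and the medians were -0.24 for the core, -0.22 for the cap and -0.21 for the activators and inhibitors. With upper-quartile factors, 0 members and 0 cap genes rose, with medians of -0.21, -0.18 and -0.17. On log2(RPKM + 1) these were 0, 0, -0.21, -0.21 and -0.18, and on log2(RPKM + 0.1) they were 0, 0, -0.24, -0.21 and -0.20. These scalings also moved the median of all genes, to -0.09, -0.05, -0.04 and -0.08 in that order. With DESeq2, 3 core genes fell; the cause was not tested.

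Without 1 library, 12 to 17 members fell and 0 to 1 rose; 3 to 6 cap genes fell (3 without siCBX3 2) and 0 to 1 rose, and 1 to 2 activators and inhibitors fell (1 without siCBX3 1). The core median was -0.19 to -0.16 and the assembly median -0.36 to -0.16, the latter without siNC 2. With the replicate block, 20 members and 8 cap genes fell. The replicate numbers share no stated source. Deviations of same-numbered libraries correlated at 0.0591 across genes. With 2 libraries per group this cannot show whether the numbers pair the libraries. PSMA5, PSMB1, PSMB2, PSMC4, PSMD9, PSMD11, PSMD14, PSME3 and PSMG3 each lost the call without at least 1 library.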
